A study of Mus musculus with 4 samples.

Results

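The 38 genes described here encode enzymes of serine synthesis, the folate-bound one-carbon cycle, purine and pyrimidine nucleotide synthesis, deoxynucleoside salvage and the control of deoxynucleotide pools. They were chosen by name, from what their products do, and not by a rule on their measured values, although earlier results of these data were known. All 38 were found, each as 1 row, among the 37646 genes listed in the count tables. RNA was measured in 4 libraries of 1 group, called libraries 1 to 4 in the order of the deposited samples. Each library came from splenic germinal centre B cells of control mice on the C57BL/6 background, sorted for the B cell surface marker B220 and for the yellow fluorescent reporter YFP after dead cells had been excluded with 7AAD. The mice carried the genotype YFPstopF/+Cg1Cre/+, that is, 1 allele of a YFP reporter behind a removable stop and Cre recombinase driven from the Cg1 (immunoglobulin gamma 1 constant region) locus. Sheep red blood cells were injected intraperitoneally, with 20 days between the first and the second injection, and the design places the response examined at 10 days after the second.

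The labels give neither age nor sex, and whether the libraries stem from different animals is not stated, so the spread between libraries given here may be technical in part. The lymphoma samples to which these controls belong in the study's design were not analysed here, and the libraries allow no comparison between groups. A Cre driven from Cg1 leaves its mark on descendants of the cells that used it, so YFP is also kept by memory and plasma cells. Markers of the labelled cell type were present, and so were those of other cells: all 7 germinal centre genes on the list used (Bcl6, Fas, S1pr2, Mef2b, Neil1, Rgs13 and Gcsam) lay above 1 TPM (counts per length of gene, scaled to a common sum in each library) in every library, and the same held for the whole lists of naive and memory B, plasma, T, NK and macrophage genes, whose levels are given further on. Library 3 had 1307 counts of the Y-linked gene Ddx3y against 0 to 3 in the others, and 6 counts of Xist against at least 8689, the pattern of male cells where the others had that of female cells. By these counts library 3 did not share an animal with the others. Whether the others came from different animals remains unstated. Totals ran from 13777954 to 14629025 counts, and mitochondrial genes took 18.1% of the counts in library 3 and 19.8% to 23.3% in the others. In bulk RNA, fewer cells of a type and less RNA per cell cannot be told apart.

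A dividing cell has to copy its genome, and germinal centre B cells are among the fastest dividing cells of the body. Serine, made from a glycolytic intermediate or taken up, gives a carbon unit to tetrahydrofolate, in mitochondria through SHMT2 and in the cytosol through SHMT1, and folate carries that unit to the purine ring and to thymidylate. Ribonucleotides built on phosphoribosyl pyrophosphate (PRPP) are then reduced to deoxynucleotides by ribonucleotide reductase, while salvage kinases recover deoxynucleosides and other enzymes trim the pools.

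Every member was expressed. All 38 lay above 1 TPM in every library, against 30.8% of all genes with a known length. The median of the members' mean levels was 41.0 TPM and that of the 11982 genes with enough counts for a test was 13.4 TPM, and 33 of 38 members lay above the latter. Mean levels ran from 4.98 TPM for Rrm2b to 246 TPM for Shmt2. Together the 38 genes summed to 1783, 1393, 2302 and 1836 TPM in libraries 1 to 4 and took 0.366%, 0.291%, 0.407% and 0.358% of all counts. The sum was highest in library 3 and lowest in library 2. The member with the fewest reads in a library had 79 counts, far above the 3 counts that a gene at 0 allows.

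**Figure D1:**
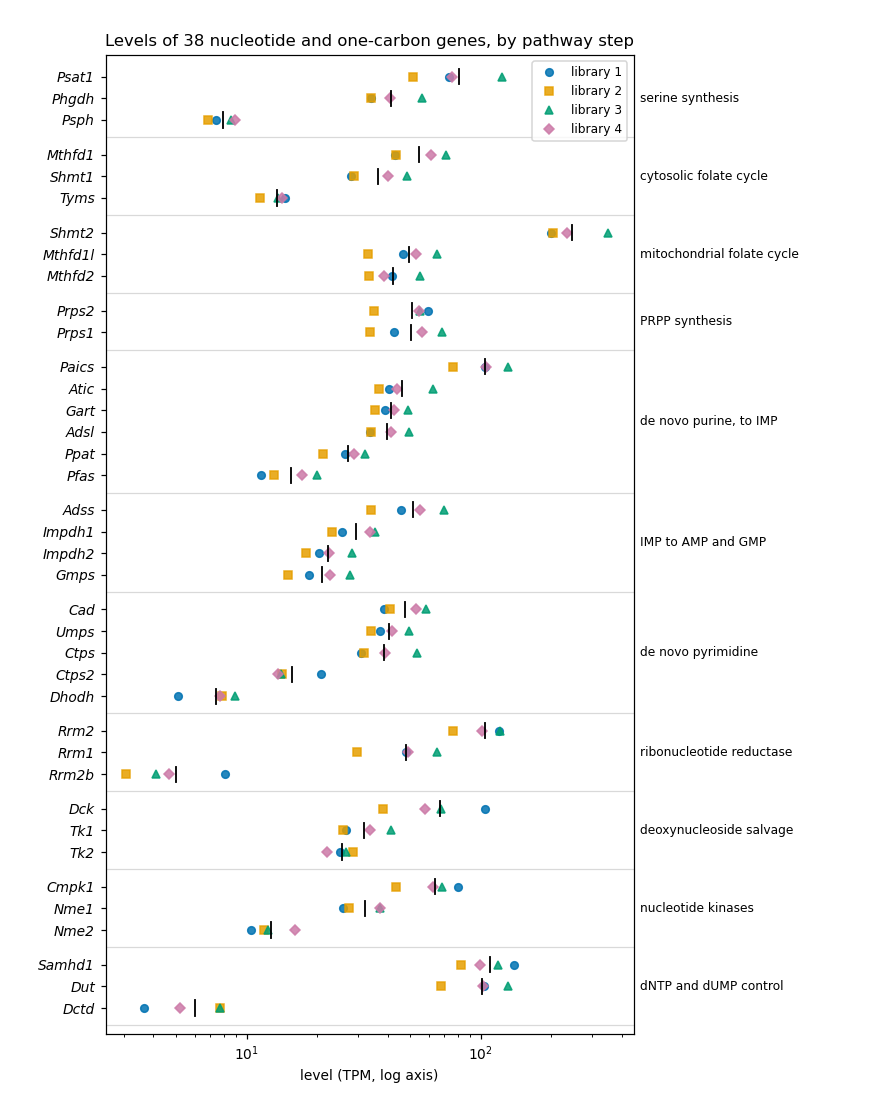
Level of each of the 38 genes in each library, in TPM on a log axis, grouped by pathway step. Coloured symbols are libraries, and the black bar is the mean of the 4 libraries. Shmt2 lies highest and Rrm2b lowest, and library 3 is the highest for most of the genes down to the pyrimidine enzymes.

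In what follows, levels compared between genes are in TPM as mean ± SD over the 4 libraries, and levels of single members compared between libraries are normalised CPM (counts scaled to library size, CPM, after TMM normalisation), given for libraries 1 to 4 in that order. Sums over lists are in TPM, by which 28 and not 23 of the members were highest in library 3.

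Serine synthesis has 3 enzymes. Psat1, the transaminase of the middle step, was the highest of them at 80.9 ± 30.4 TPM, Phgdh, the dehydrogenase that opens the pathway, stood at 41.3 ± 10.4 TPM, and Psph, the phosphatase that releases serine, at 7.94 ± 0.98 TPM. Psat1 (chromosome 19, 15904678 to 15947337, minus strand, mm10) had 142.5, 110, 207 and 139 normalised CPM. Library 3 was high, library 2 low, and the other 2 lay between them. Phgdh had 38.5, 42.7, 54.8 and 44.4 normalised CPM, again with library 3 on top but with library 1 lowest. Psph barely moved, at 14.6, 15.0, 14.7 and 16.7 normalised CPM, and its coefficient of variation between libraries (6.52%) was below that given by counting alone (6.80%), the only such case among the 38. For Phgdh, 47.8% of all stretches of 50 bases in its exons, the length of a read, also occur in transcripts of other genes, mostly the pseudogene Gm7901, which had 1 to 8 counts. How such reads were counted is not given in the sources used here, so the level of Phgdh is uncertain. Psph shares 10.4% of its exon bases with Cct6a on the opposite strand, a gene with 2973 to 4596 counts, and whether counting used strand is not given either.

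In the cytosolic folate cycle, Mthfd1, the trifunctional enzyme that interconverts folate-bound carbon units, was the highest at 54.8 ± 13.96 TPM. Shmt1, the cytosolic serine hydroxymethyltransferase, followed at 36.4 ± 9.90 TPM, and Tyms, thymidylate synthase, which methylates dUMP to dTMP, was lowest at 13.5 ± 1.42 TPM. Mthfd1 had 87.3, 97.4, 125 and 118 normalised CPM, and Shmt1 had 49.7, 56.2, 74.4 and 67.7. The libraries kept the same order in both genes, 1, 2, 4 and 3 from low to high. Tyms had 40.7, 35.2, 32.7 and 37.6 normalised CPM, so library 3, the highest for most members, was its lowest.

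The mitochondrial enzymes were led by Shmt2 (chromosome 10, 127517123 to 127522444, minus strand), which had the highest mean of the 38 genes at 246 ± 69.5 TPM. It had 284, 320, 426.5 and 314.5 normalised CPM. Library 3 stood above the other 3, which ran from 284 to 320. Mthfd1l, the mitochondrial formate-releasing synthetase, stood at 49.3 ± 13.2 TPM and Mthfd2, the mitochondrial dehydrogenase and cyclohydrolase, at 42.1 ± 9.32 TPM. Mthfd1l had 94.2, 74.1, 113 and 101.5 normalised CPM, and Mthfd2 had 66.3, 58.4, 75.7 and 58.3. Both were highest in library 3, and the 2 lowest libraries of Mthfd2, 2 and 4, were all but equal.

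Prps1 and Prps2, both on the X chromosome, encode synthetases that make PRPP and stood at 50.2 ± 15.1 and 51.0 ± 11.0 TPM. Prps1 had 39.0, 33.9, 53.4 and 48.6 normalised CPM. Prps2 had 106, 68.2, 84.1 and 91.3. Library 2 was lowest in both, but Prps1 was highest in library 3 and Prps2 in library 1. The processed copy Prps1l3, which shares sequence with Prps1 (9.93% of its stretches of 50 bases occur elsewhere), had 421, 375, 272 and 321 counts in libraries 1 to 4. Prps1 itself had 549, 439, 800 and 709. How shared reads were counted is not given, so the level and library profile of Prps1 are uncertain too.

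The 6 enzymes that build inosine monophosphate (IMP) on PRPP were highest in library 3 without exception. Paics, the bifunctional carboxylase and synthetase, was the highest in level at 104 ± 22.0 TPM, and Pfas, the amidotransferase of the fourth step, the lowest at 15.4 ± 3.84 TPM. Atic, which carries out the closing steps to IMP, stood at 45.9 ± 11.4 TPM, the trifunctional Gart at 41.6 ± 5.73 TPM, the lyase Adsl at 39.6 ± 7.34 TPM and Ppat, the committed first step, at 27.0 ± 4.55 TPM. Gart (chromosome 16, 91621186 to 91646952, minus strand) had the steadiest counts of all members, 92.1, 91.8, 99.0 and 95.6 normalised CPM, a coefficient of variation of 3.56%, although 19.7% of its exon bases are shared with the antisense gene Gm15964 (14 to 23 counts). Atic had 149, 147.5, 196 and 152 normalised CPM, with 3 libraries together and library 3 apart. Pfas differed in another way, at 41.8, 52.3, 62.4 and 59.2 normalised CPM, with library 1 as the low one. Adsl had 86.8, 96.8, 109 and 102 normalised CPM, in the same order of libraries as Pfas.

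Paics and Ppat lie head to head on chromosome 5, and their annotated exons overlap by 272 bases at the start sites. Ppat had 53.0, 47.3, 55.8 and 55.04 normalised CPM. Paics had 150, 121, 161 and 143. Library 2 was lowest and library 3 highest in both.

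From IMP the route splits. Adss, adenylosuccinate synthetase, leads towards AMP and stood at 51.2 ± 15.2 TPM. Towards GMP, Impdh1 and Impdh2 encode the IMP dehydrogenases, at 29.4 ± 5.98 and 22.3 ± 4.42 TPM, and Gmps the GMP synthetase, at 21.0 ± 5.49 TPM. Adss had 94.4, 77.6, 125 and 109 normalised CPM, and Gmps had 68.2, 61.4, 88.5 and 79.99. Their libraries had 1 order, 2, 1, 4 and 3 from low to high. Impdh1 had 38.6, 38.4, 45.9 and 48.1 normalised CPM, and Impdh2 had 28.7, 27.9, 34.3 and 30.2. Libraries 1 and 2 were the lower ones in both. Of the stretches of 50 bases in Impdh2, 39.3% also occur in its pseudogene Impdh2-ps, which had 14 to 33 counts, so the level of Impdh2 is uncertain too.

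Among the pyrimidine enzymes, Cad, the trifunctional protein of the opening steps, stood at 47.7 ± 9.34 TPM, Umps, which makes UMP, at 40.7 ± 6.81 TPM, and Dhodh, the dehydrogenase of the inner mitochondrial membrane, at 7.39 ± 1.63 TPM. Cad had 145, 169, 188 and 187 normalised CPM, and Umps had 59.0, 59.7, 68.04 and 63.5. Both were lowest in library 1 and highest in library 3. Dhodh had 14.7, 25.2, 22.2 and 21.2 normalised CPM, with library 1 far below the other 3. The CTP synthetases went opposite ways: Ctps had 46.8, 53.3, 69.9 and 56.3 normalised CPM, whereas the X-linked Ctps2 had 44.8, 33.6, 26.0 and 27.8. Library 1 was lowest for Ctps and highest for Ctps2, and library 3 the reverse.

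Ribonucleotide reductase pairs a large subunit, RRM1, with a small one, which is RRM2 in S phase or RRM2B, known for supplying deoxynucleotides outside S phase and after DNA damage. Rrm2 stood at 104.5 ± 20.9 TPM, Rrm1 at 48.0 ± 14.5 TPM and Rrm2b at 4.98 ± 2.19 TPM, the lowest mean of the 38. Rrm1 (chromosome 7, 102441695 to 102469771, plus strand) had 242, 165, 283 and 234.5 normalised CPM. Rrm2 had 152, 107, 132 and 122, with the same library lowest but library 1 and not 3 highest. Rrm2b (chromosome 15, 37923952 to 37961318, minus strand) had 33.9, 14.04, 14.8 and 18.4 normalised CPM. Library 1 stood apart in Rrm2b, and the other 3 lay close together. An antisense gene, Gm49085, shares 8.04% of the exon bases of Rrm2b and had 34 to 46 counts.

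Salvage showed the member with the widest range. Dck, deoxycytidine kinase (chromosome 5, 88764996 to 88783281, plus strand), had 179, 72.7, 101 and 95.2 normalised CPM, a 2.47-fold range, at a mean of 67.0 ± 27.6 TPM. Library 1 was well above the rest and library 2 below them. Tk1, the cytosolic thymidine kinase of S phase, had 62.9, 67.9, 84.9 and 75.9 normalised CPM (31.9 ± 7.31 TPM), and Tk2, the mitochondrial enzyme, had 41.0, 51.5, 37.5 and 34.2 (25.6 ± 2.75 TPM). Tk1 was highest in library 3, Tk2 in library 2.

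Of the nucleotide kinases, Cmpk1, which phosphorylates UMP and CMP, had 125, 75.4, 91.8 and 92.9 normalised CPM at 63.6 ± 15.2 TPM. Library 1 was highest and library 2 lowest, as in Dck. Nme1, a nucleoside diphosphate kinase, had 39.6, 46.1, 49.0 and 53.9 normalised CPM (31.9 ± 6.12 TPM), and its neighbour Nme2 had 5.61, 7.02, 5.68 and 8.23 (12.7 ± 2.44 TPM). The Nme pair was lowest in library 1 and highest in library 4. The annotation holds a readthrough gene, Gm20390, on the same strand over 48.9% of the exon bases of Nme2 and 12.5% of those of Nme1. That gene was not analysed here, and reads in the shared bases may have been left out of either count, so the levels of both are uncertain and that of Nme2 most of all.

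Pool control was represented by Dut, the dUTPase that keeps uracil out of DNA, at 101 ± 25.9 TPM, by Samhd1, which breaks down deoxynucleoside triphosphates, at 110 ± 24.2 TPM, and by Dctd, which deaminates dCMP to dUMP, at 6.05 ± 1.99 TPM. Samhd1 (chromosome 2, 157097533 to 157135265, minus strand) had 579, 380.5, 426 and 395.5 normalised CPM, with library 1 on top. Dut had 113.5, 82.3, 124 and 108, with library 3 highest and library 2 lowest. Dctd had 5.68, 13.2, 10.4 and 7.68 normalised CPM, a 2.32-fold range in which library 1 was lowest and library 2 highest.

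Per-length levels depend on what length is used. The lengths above are unions of all annotated exons, which for Rrm1 come to 11012 bases against 3997 for its principal transcript, and for Tk1 to 5198 against 1440. With principal transcripts, a setting added after the lengths were seen, Shmt2 was still the highest member at 286 TPM. Rrm1 and Rrm2 then both stood at 113 TPM, with SDs of 32.2 and 20.8, Tk1 at 98.4 ± 20.9 TPM and Atic at 110 ± 25.2 TPM. The lowest member was then Dctd, at 8.44 TPM, with Rrm2b next to it at 8.53 TPM.

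Which partner dominates was asked for 10 pairs of isoenzymes, compartment counterparts or subunits, as differences of log2(TPM + 1) within each library. With 4 libraries a two-sided exact sign-flip permutation test cannot give a p below 0.125, so no pair can pass a threshold of 0.05. Pairs whose sign was the same in all 4 libraries have that smallest p, and 0.179 after Benjamini-Hochberg adjustment over the 10 pairs. Shmt2 exceeded Shmt1 by 2.79, 2.79, 2.82 and 2.51 in libraries 1 to 4, a mean of 2.73 ± 0.15 or 6.62-fold. The difference is many times the spread between libraries. Rrm2 exceeded Rrm2b by 3.73, 4.26, 4.58 and 4.18, a mean of 4.18 ± 0.35 or 18.2-fold. That size rests on the long exon union of Rrm2b, and with coding lengths the mean was 2.53, still with Rrm2 higher. Ctps exceeded Ctps2 by 0.55, 1.12, 1.86 and 1.46, a mean of 1.25 ± 0.56. Here the direction held in all 4 libraries but the size did not, with library 1 low and library 3 high, and with coding lengths the mean was 0.75. Nme1 exceeded Nme2 by 1.26 ± 0.18, higher in 4 of 4 libraries, subject to the overlap named above, and by 2.77 with coding lengths.

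Rrm1 was lower than Rrm2 in 4 of 4 libraries, with a mean difference of -1.14 ± 0.22, but with principal transcript lengths the difference was -0.03, so the data do not order these subunits. Mthfd2 was lower than Mthfd1 in 4 of 4 libraries, by -0.05, -0.38, -0.37 and -0.66, a mean of -0.36 ± 0.25. With coding lengths the same pair had the opposite sign, 0.69, so it is not ordered either. Impdh2 lay below Impdh1 in 4 of 4 libraries at -0.38 ± 0.12, and at -0.01 with principal transcripts, so this pair is not ordered. The level of Impdh2 is also uncertain because of the sequence it shares with its pseudogene, as said above. The other 3 pairs had mixed signs. Mthfd1l minus Mthfd1 was -0.16 ± 0.21 (higher in 1 of 4 libraries, exact permutation p = 0.250, adjusted 0.312). Prps1 minus Prps2 was -0.04 ± 0.32 (2 of 4 libraries, exact permutation p = 0.750, adjusted 0.750). It was -0.09 with principal transcripts, but -0.99 with coding lengths and -0.99 without division by length (exact permutation p = 0.125 in both). Whether Prps1 and Prps2 were near equal thus depends on the length used. Tk1 minus Tk2 was 0.29 ± 0.38 (3 of 4 libraries, exact permutation p = 0.375, adjusted 0.417), and 1.55 with principal transcripts, which are far shorter than the exon union in Tk1.

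**Figure D2:**
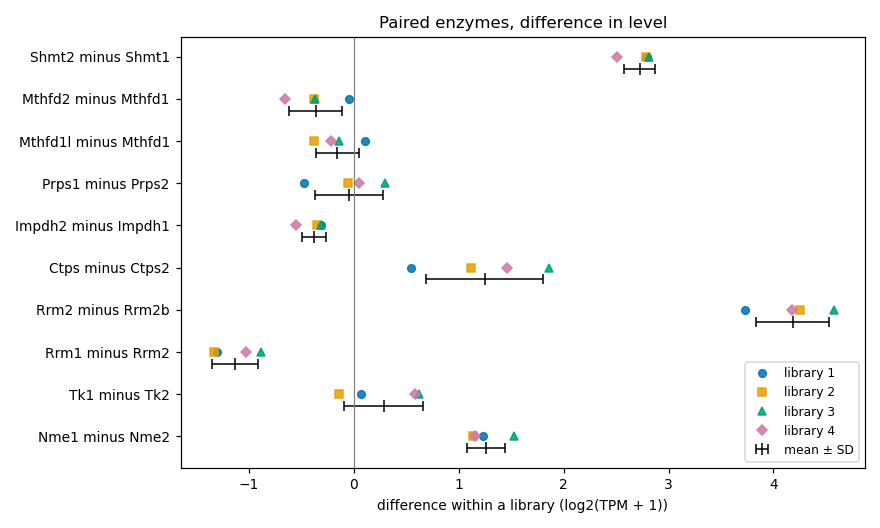
Difference in log2(TPM + 1) between the 2 genes of each pair, within each library (coloured symbols), with the mean and SD over 4 libraries in black below. Shmt2 over Shmt1 and Rrm2 over Rrm2b lie far from 0 in every library, whereas Prps1 and Prps2 straddle it with the exon-union lengths used here.

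The libraries differed in how the genes moved together. By normalised CPM, 23 of 38 members (60.5%) were highest in library 3, where 27.8% of all tested genes were. Library 3 is also the only male library by Ddx3y and Xist, so sex and library cannot be told apart here. Library 1 was the highest for 8 members against a background of 28.9%, namely Tyms, Prps2, Ctps2, Rrm2, Rrm2b, Dck, Cmpk1 and Samhd1. Library 2 was the highest for 3 against 25.1% (Dhodh, Tk2 and Dctd), and library 4 for 4 against 18.3% (Psph, Impdh1, Nme1 and Nme2). All 3 mitochondrial folate enzymes, all 6 enzymes to IMP, Phgdh, Psat1, Cad and Rrm1 were among those highest in library 3. None of the 8 genes highest in library 1, out of 38, was among the 3 members of serine synthesis or the 6 from PRPP to IMP. The same held for the mitochondrial folate cycle and for the enzymes from IMP to AMP and GMP. This restates the counts above, since a gene highest in 1 library cannot be highest in another. Prps2, which makes PRPP, was among the 8. Library 2 was the lowest for 19 members, or 50%, against 26.7% of tested genes, and library 1 for 15 against 28.4%. Library 3 was the lowest for 2 (Tyms and Ctps2) against 26.5%, and library 4 for 2 (Mthfd2 and Tk2) against 18.4%. Members of a pathway are not independent of each other, so these shares describe the 4 libraries and carry no test.

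**Figure D3:**
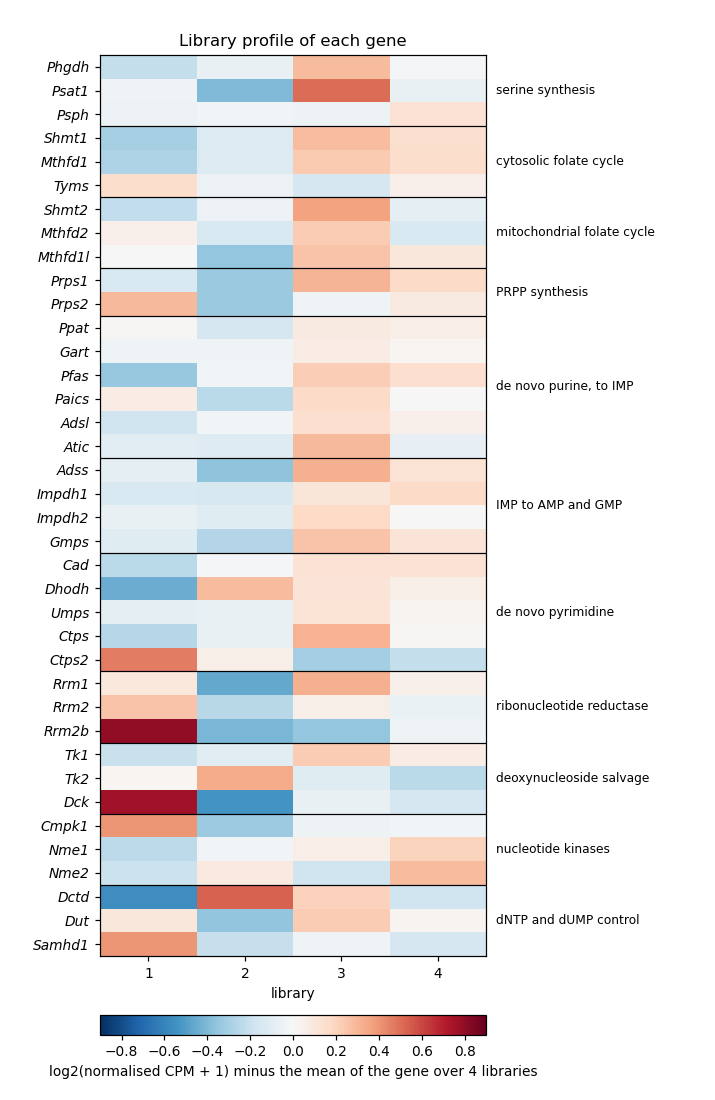
Deviation of each gene in each library from its mean over the 4 libraries, as log2(normalised CPM + 1), red for higher and blue for lower, grouped by step. Red fills most of the column of library 3 from serine synthesis to Ctps (not Psph, Tyms or Prps2), and Dck, Rrm2b, Ctps2, Cmpk1 and Samhd1 stand out red in library 1.

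In size, these shifts were small. The median deviation of the members from their own means was -0.07, -0.12, 0.16 and 0.04 on the log2(normalised CPM + 1) scale in libraries 1 to 4, against 0.01, -0.01, 0.00 and 0.00 over all tested genes. Without library 3 it was -0.02 in library 1 and -0.05 in library 2. Without Dck and Rrm2b, an alternative added after their values were seen, the shift in library 3 was 0.18. In library 3 the median deviation was 0.29 for serine synthesis, 0.26 for the mitochondrial folate cycle, 0.24 for the cytosolic folate cycle, 0.22 for the enzymes from IMP to AMP and GMP, and 0.16 for those up to IMP. It was 0.21 for pool control, 0.13 for PRPP synthesis, 0.12 for the pyrimidine enzymes, 0.05 for ribonucleotide reductase, -0.05 for the nucleotide kinases and -0.07 for salvage. Most of these steps held genes that went both ways. In the last 2, medians of 3 genes each, Tk1 and Nme1 lay above their means in library 3. Psph, Tyms, Prps2, Ctps2, Rrm2b and Samhd1 lay below theirs, in steps whose median was above 0. Differences between steps were not tested. Ribonucleotide reductase was the step with the widest spread, 0.26, -0.41, 0.05 and -0.04, high in library 1 and low in library 2.

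Proliferation genes moved in part alike. The 14 S phase genes had median deviations of 0.05, -0.29, 0.27 and -0.01 in libraries 1 to 4, and the 12 G2/M genes had 0.10, -0.30, 0.20 and 0.05. Library 3 was the highest and library 2 the lowest for both lists, as for the members. Summed levels of the S phase list were 1371, 999.9, 1982 and 1452 TPM. In library 1 both proliferation lists lay above 0 and the members' median below it, at a value that depends on library 3. How far the number of cycling cells accounts for the members' levels was not tested.

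**Figure D4:**
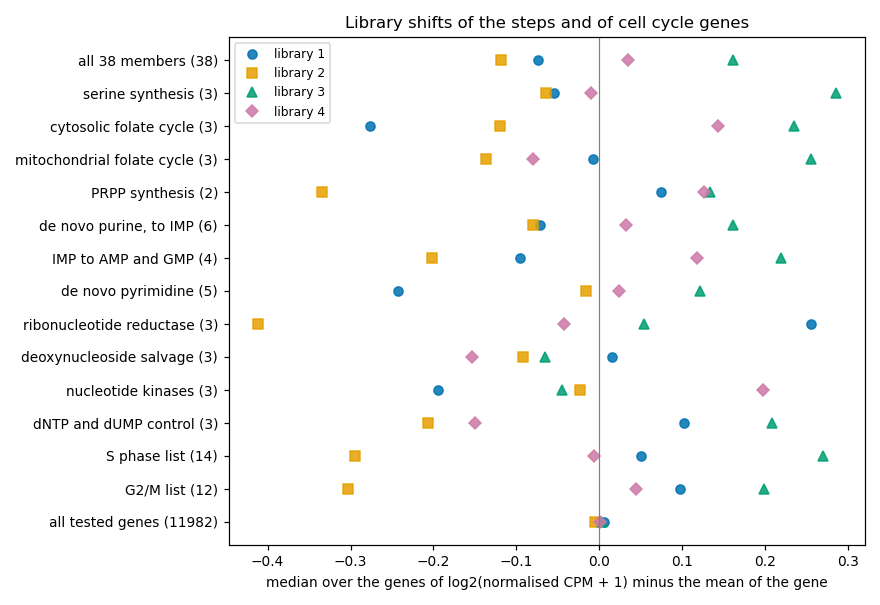
Median deviation of the genes of each step, of the S phase and G2/M lists and of all tested genes, per library, on the log2(normalised CPM + 1) scale. Library 3 lies to the right of 0 for the synthesis steps and for the cell cycle lists, library 2 to the left of 0 for every list, and all tested genes sit at 0.

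Markers of other cells differed between the same libraries. All 7 T cell markers lay above 1 TPM in every library and summed to 358, 160, 132 and 293 TPM, so library 1 was highest and library 3 lowest. The plasma cell list (5 of 5 genes above 1 TPM everywhere) summed to 1841, 1625, 791 and 1669 TPM, lowest in library 3. The 6 genes of naive and memory B cells, all above 1 TPM everywhere, summed to 1442, 2626, 1853 and 1927 TPM, highest in library 2. The germinal centre list itself summed to 1429, 1124, 1866 and 1359 TPM, lowest in library 2 and highest in library 3, while by the median deviation of its genes it was highest in library 1 (0.22). The 5 macrophage genes, again all above 1 TPM everywhere, summed to 213, 114, 168 and 158 TPM, and the 3 NK cell genes to 49.7, 24.4, 23.3 and 41.2 TPM. Both of these sums were highest in library 1. The macrophage sum followed Lyz2, at 114.5, 32.8, 66.5 and 59.1 TPM. Csf1r, Adgre1 and C1qa were also highest in library 1 but in a narrower range, and Cd68 was highest in library 3 (63.1 TPM). Of 4 neutrophil genes 2 and of 6 erythroid genes 4 were above 1 TPM everywhere, with sums of 78.5 to 210 and 98.0 to 269 TPM, both highest in library 4, and Retnlg was at 0 counts in library 1. The part of these cells in the members' levels was not tested.

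No member passed the test of variation between libraries. That test, edgeR's quasi-likelihood dispersion of each gene over the trend for genes of its abundance, called 0 of 38 members at an adjusted p under 0.05, against 0.00835% of the 11982 genes tested (1 gene). With edgeR's robust option and among DESeq2's dispersion outliers it was also 0 of 38, where those settings called 63 and 159 genes of all tested. An unadjusted p under 0.05 was found for 2 of 38 members (5.26%), against 4.97% of tested genes, a share near the background. They were Dck, at 11.2 times the trend (edgeR adjusted p = 0.663), and Rrm2b, at 6.46 times the trend (edgeR adjusted p = 0.925), both high in library 1. Without library 1 neither was among them, and Psat1 and Rrm1 were.

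The coefficient of variation of normalised CPM between libraries had a median of 16.8% over the members, against 15.5% over the tested genes, and counting alone gave a median of 3.20% for the members. It ran from 3.56% in Gart to 45.7% in Rrm2b. Dck, Rrm2b and Dctd were the 3 members with more than a 2-fold range between libraries, and the median range was 1.48-fold. 28 of 38 members lay above the trend, against 45.7% of tested genes. The median variation was 1.78 times the trend for the members and 0.895 times for the tested genes, a difference that was not tested.

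**Figure D5:**
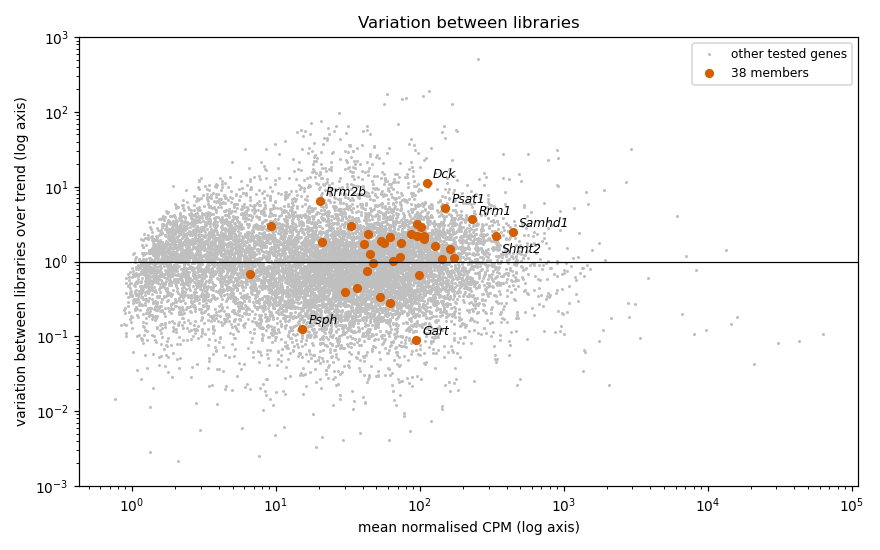
Variation between libraries relative to the trend (log axis) against mean normalised CPM (log axis) for the 38 genes (orange) and the other tested genes (grey). The line at 1 is the trend. Dck and Rrm2b lie highest of the 38 and Gart and Psph lowest, all within the cloud of the other genes.

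The pathway extends past these 38 genes. A further 61 genes cover folate and methionine metabolism, serine and glycine handling, salvage, nucleotide kinases and breakdown. Of these, 60 had values used here and 49 entered the test. In every library 45 lay above 1 TPM, against 30.8% of all genes with a known length. None of the 49 passed at an adjusted p under 0.05, and 2 did at an unadjusted p under 0.05 (edgeR). That share is near the 4.97% of all tested genes. One was Slc1a5, a transporter of neutral amino acids, with 319, 503.5, 831 and 363 normalised CPM (edgeR adjusted p = 0.610), highest in library 3 like Shmt2 and Psat1. The other was Uprt, related to uracil salvage enzymes, with 13.3, 5.32, 4.14 and 5.83 normalised CPM (edgeR adjusted p = 0.990), highest in library 1. Slc1a5, at 278 ± 154 TPM, was also the highest in level of the serine and glycine genes. Hprt, which salvages hypoxanthine and guanine, led the salvage genes at 184 ± 36.9 TPM, Dctpp1, which hydrolyses dCTP, the kinases and pool control genes at 114 ± 33.0 TPM, Mat2a, which makes S-adenosylmethionine, the folate and methionine genes at 48.8 ± 2.91 TPM, and Ampd2, an AMP deaminase, the breakdown genes at 37.1 ± 9.61 TPM. At the other end, Cda, cytidine deaminase, and Dpys, of pyrimidine breakdown, had 0 counts in all 4 libraries, which allows up to 0.205 to 0.218 CPM. Gldc, of the mitochondrial glycine cleavage system, had 2 counts in library 2 and 0 elsewhere. Of the breakdown genes 2 of 8 were above 1 TPM in every library.

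Regulators known to act on the pathway were all expressed, from Nrf1, of mitochondrial and other housekeeping promoters, at 14.3 ± 2.61 TPM to Atf4, the amino acid stress factor that acts on serine synthesis genes, at 457 ± 96.6 TPM. Myc, a growth factor-induced activator of many of the members, had 219, 436, 247 and 293 normalised CPM (unadjusted p under 0.05, edgeR adjusted p = 0.899). It was highest in library 2, where 19 members were lowest. E2f1, which acts on S phase genes, had 66.8, 52.6, 82.5 and 63.3 normalised CPM, lowest in library 2 and highest in library 3.

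Promoter letters were read for members whose start sites are in RefSeq's table of GRCm38.p6, windows of 300 bases from 250 before to 50 after the start. It held 44 windows of 35 members, and not Pfas, Dhodh or Rrm2b. Motifs were searched on both strands: the canonical E-box CACGTG bound by MYC and MAX, the E2F forms TTTCCCGC and TTTGGCGC, the CCAAT box of NF-Y, the ETS core CCGGAAG, NRF1's GCGCATGC, ATF4's TGATGCAA and the GC box GGGCGG of SP and KLF factors. The E-box was in 6 of 44 member windows (13.6%) against 7.15% of all 32851 windows, and the GC box in 30 (68.2%) against 35.7%. TTTCCCGC was in 2 (4.55%) against 1.07%, CCGGAAG in 7 (15.9%) against 8.86%, GCGCATGC in 3 (6.82%) against 2.71%, and CCAAT in 16 (36.4%) against 37.4%. TTTGGCGC and TGATGCAA were in none of the member windows and in 0.514% and 0.895% of all. The shares are descriptions of letters, since no binding was measured.

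The E-box windows are printed because Myc, unlike most members, was highest in library 2, and the E2F windows because E2F factors act on S phase genes. TTTCCCGC was in 1 window of Ppat, at 2 places, and in 1 window of Prps2, after its start site. Sequences run 5′ to 3′ on the strand of the gene, and capitals mark the motif, which reads GCGGGAAA where TTTCCCGC lies on the opposite strand. Tyms, whose E-box starts 61 bases before the start site, and Nme1, at 29 bases before 1 of its starts, carry it outside annotated exons. That place of Nme1 is inside the gene, downstream of the annotated exon that holds its other E-box. The start of Nme1 called first below is the one further into the gene. The coordinates (GRCm38.p6) are chr5:30073647-30073726 (minus) for Tyms, chr11:93968026-93968094 (minus) and chr11:93968273-93968302 (minus) for Nme1, chr1:71557137-71557166 (plus) for Atic, chr9:108560314-108560343 (plus) for Impdh2, chr5:76951087-76951116 (plus) for Paics, chr5:76951771-76951800 and chr5:76951718-76951747 (both minus) for Ppat, and chrX:167382700-167382727 (minus) for Prps2.
Tyms E-box: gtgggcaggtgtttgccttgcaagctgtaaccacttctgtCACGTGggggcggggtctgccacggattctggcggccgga
Nme1 E-box, first start: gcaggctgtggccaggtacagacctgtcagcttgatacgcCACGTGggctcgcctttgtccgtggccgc
Nme1 E-box, second start: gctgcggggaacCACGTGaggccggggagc
Atic E-box: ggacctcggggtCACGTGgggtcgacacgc
Impdh2 E-box: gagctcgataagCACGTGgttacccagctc
Paics E-box: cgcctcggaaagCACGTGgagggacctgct
Ppat E2F, outer: gagcagaccgcGCGGGAAAaaagggcagtg
Ppat E2F, inner: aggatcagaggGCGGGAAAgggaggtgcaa
Prps2 E2F: tgctgctgcgtTTTCCCGCttcaccagc

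The E-box of Paics lies in an exon of Ppat, and both E2F motifs of Ppat lie in an exon of Paics. The inner E2F motif of Ppat overlaps a GC box, GGGCGG, by 4 letters. In the Tyms window a GC box follows the E-box within the printed letters. The 5 members with an E-box did not share a library profile: Atic, Impdh2 and Paics were highest in library 3, Tyms in library 1 and Nme1 in library 4. None of the 5 was highest in library 2, where Myc was, but only 3 of all 38 members (7.89%) were, against 25.1% of tested genes. Whether MYC acts on these genes was not tested. Among the other neighbours, by the outermost annotated ends, Mob1a starts 108 bases from Mthfd2 and Son 554 bases from Gart. The RefSeq window of Mthfd2 (chr6:83317555-83317854) lies inside the gene, away from that end at 83325908. Mob1a had 113, 73.5, 88.5 and 85.01 TPM in libraries 1 to 4, and Mthfd2 was instead highest in library 3.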

How the data were processed

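Raw read counts per gene, 1 table per library, were deposited by the authors without normalisation. Per the labels' protocols, poly(A) RNA was read single-end over 50 nt (DNBseq, a planned depth of 20 M). The tools were STAR 2.5.2b, featureCounts 1.6.0 and FastQC, with the mm10 build, per the submitters' processing notes. The annotation release, strand setting and treatment of reads with several matches are not given in the sources used here.

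Identifiers were matched to GENCODE M21 (GRCm38, the assembly of mm10): 37536 of 37646 matched, and 110 entered no TPM. TPM used exon-union lengths. The variation test was run in edgeR 4.0.16 under R 4.3.3 (TMM, filterByExpr, intercept-only glmQLFit, quasi-dispersion over trend against the upper tail of F, Benjamini-Hochberg over 11982 genes) and tested on simulated counts. Alternatives were DESeq2 1.42.0, other filters, scalings, lengths and pseudocounts, and each library left out. The 38 members are all named. Genes of other lists are named as the highest or lowest of their list, or where a member is read beside them. Slc1a5, Uprt and the single macrophage genes were named after their values were seen. Some genes of the lists are not reported here and were left out of them. The members and lists were chosen with earlier results of these data known.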

Additional observations from a re-analysis of the deposited data

Results flagged for a closer look

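Among the 38 genes and 10 pairs, 4 had 1 library far from the other 3 by Dixon's criterion (a gap to the nearest that is most of the whole range), which chance alone passes in about 1 in 20 sets. Atic had 196 normalised CPM in library 3 against 147.5 to 152 in the others. Psph had 16.7 normalised CPM in library 4 against 14.6 to 15.0, a spread smaller than that of counting. The difference Shmt2 minus Shmt1 was 2.51 in library 4 against 2.79 to 2.82, and Impdh2 minus Impdh1 was -0.55 in library 4 against -0.35 to -0.31, both on the log2(TPM + 1) scale.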

How the results depend on the processing

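Libraries could not be paired between groups because they form 1 group. The 10 gene pairs were compared within each library. Of 147 recomputed values, 142 kept their direction and their side of the threshold, or moved little. Mthfd2 minus Mthfd1 was 0.69 with coding lengths, and Rrm1 minus Rrm2 was 0.83 without division by length, both opposite in sign to the values with exon-union lengths. Leaving out each library in turn, Prps1 minus Prps2 ran from -0.16 to 0.10, the latter without library 1, and the median shift of the members in library 4 from -0.01, without library 2, to 0.09. The count of members lowest in library 2 ran from 20 to 29, against 19 with all libraries, and was 29 without library 1, since members lowest in library 1 then have their lowest value elsewhere. The median shift ran from -0.13 to -0.02 in library 1 and from -0.15 to -0.05 in library 2, in both cases weakest without library 3. Why these and the pairs moved was not tested, beyond the lengths used. Members highest in library 3, 23 with all libraries, came to 25 to 26 with another library left out and to 28 by TPM. The counts of members past the unadjusted threshold of the variation test were 2 to 3 with each library left out. Depth limits only the least abundant members: counting gave a coefficient of variation of at most 10.3%.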
